A study of Mus musculus with 14 samples.

Results

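The 9 genes described here run the first gap phase of the cell cycle: the D-type cyclins Ccnd1, Ccnd2 and Ccnd3, cyclin E1 (Ccne1), the kinases Cdk4 and Cdk2, the kinase inhibitors Cdkn1b (p27) and Cdkn2c (p18), and the transcription factor E2f1. They were followed in mouse liver before and after partial hepatectomy, an operation that takes out some of the liver lobes and after which the remaining tissue regrows. All probe sets with 1 of these symbols, and no other, in the annotation of the array were taken: 21 probe sets for 9 genes, of 22626 probe sets in all. Total RNA was measured on 14 biotin-labelled arrays, 2 of normal liver and 2 each of liver recovered 4, 8, 12, 36, 48 and 72 h after the operation. Each RNA came from the pooled livers of 4 to 6 mice. The strain, sex and age of the mice are not given in the sources used here, and the reference throughout is normal liver, with no sham-operated group in the samples analysed. Whether both arrays of a group were made from different pools of mice is not stated, so p-values reflect the scatter of these samples alone and that scatter may be technical.

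In a resting hepatocyte the retinoblastoma protein holds E2F factors inactive. Mitogens raise D-type cyclins, which activate Cdk4 and Cdk6; these phosphorylate the retinoblastoma protein and free E2F, which drives cyclin E, its own gene and the genes of DNA synthesis. INK4 proteins such as p18 block Cdk4 and Cdk6, and Cip/Kip proteins such as p27 and p21 block cyclin E with Cdk2. Most hepatocytes of the adult liver are out of the cycle, and partial hepatectomy brings many of them back into it within days.

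Values are intensities per probe set, 1 per array, as deposited. Each change is given on the scale of log2(intensity + 57) beside its standard error (SE) from a limma fit of all 14 arrays, 2 arrays against 2 unless stated, and a probe set passed where its Benjamini-Hochberg adjusted p over all 13576 tested probe sets was under 0.05. Of the 21 probe sets 15, at least 1 for each gene, passed the filter on low signals and were tested. Median intensities ran from 127.8 to 233.1, and precision is limited by having 2 arrays a group. A signal counted as above background where it exceeded the 95th percentile of 27 bacterial controls on that array, which ran from 43.56 to 138.3. All 9 hepatocyte markers, among them Alb and Ttr, were above background on both arrays of every group. In a control for RNA integrity replicate 2 differed from the rest at 8, 12, 36 and 72 h, with a 5′ to 3′ signal ratio of pyruvate carboxylase of 0.091 to 0.137 against 0.305 to 0.584 on the other 10 arrays. Summed signals of 14 pancreatic acinar markers were 1360 and 2495 in normal liver, 44159 and 44354 at 4 h, 292554 and 318817 at 8 h, 1330 and 49179 at 36 h, and at most 5133 on the other arrays. Those of 14 skeletal muscle markers were 547 and 974 in normal liver, 19161 and 21000 at 4 h and 11860 and 12906 at 8 h. They were 2300 and 2849 at 12 h, 763 and 3437 at 36 h, and at most 1343 at 48 and 72 h. The part of these signals in the results at 4, 8, 12 and 36 h was not tested. In bulk RNA, more cells with a transcript and more transcript per cell cannot be told apart.

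Ccnd1, the D-type cyclin best known in regenerating liver, rose at 36 and 72 h on all 3 of its probe sets, with the highest means at 36 h. The brightest, 1448698_at, read 855 and 735 in normal liver, 1650 and 1704 at 4 h, 1618 and 1852 at 8 h, 1975 and 459.6 at 12 h, 3659 and 3783 at 36 h, 2367 and 2881 at 48 h, and 3220.1 and 3562 at 72 h. The 36 and 72 h arrays lay above all others, the 48 h arrays above the early and normal ones, and replicate 2 of 12 h fell below normal liver. Probe set 1417420_at read 428 and 240.1 in normal liver, 1074 and 695 at 4 h, 1154 and 972 at 8 h, 932 and 308 at 12 h, 2260 and 1674 at 36 h, 1812 and 867 at 48 h, and 1485 and 1542 at 72 h. Probe set 1417419_at read 149.5 and 172 in normal liver, 309 and 338 at 4 h, 518 and 384 at 8 h, 420.4 and 251 at 12 h, 1044 and 596 at 36 h, 705 and 795 at 48 h, and 789.7 and 444 at 72 h. On all 3 the lowest group was normal liver and the highest 36 h, and replicate 2 of 12 h was the lowest array after the operation.

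**Figure D1:**
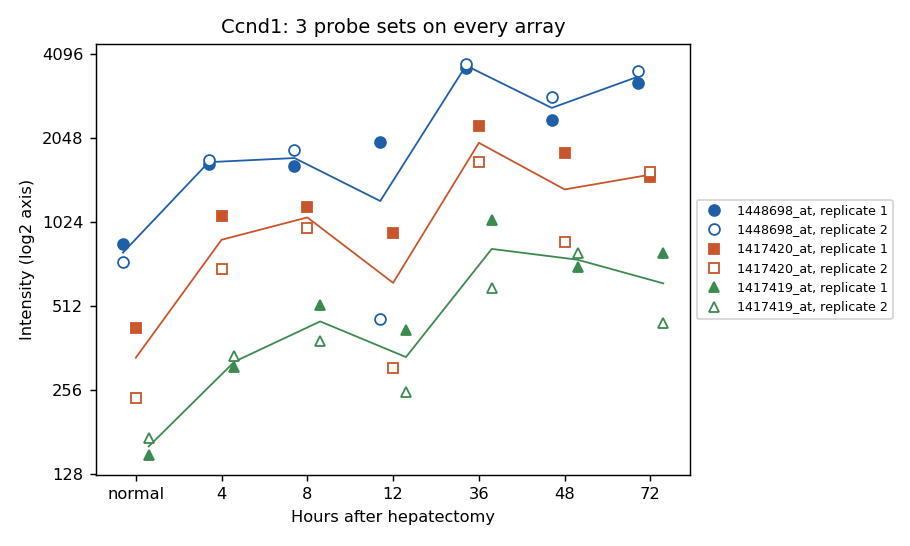
Intensity of the 3 Ccnd1 probe sets on each array (log2 axis) against the hours after hepatectomy; filled symbols are replicate 1, open symbols replicate 2, and lines join the group means. Normal liver has the lowest mean and 36 h the highest on each probe set, and replicate 2 of 12 h (459.6, 308 and 251) lies below its partner (1975, 932 and 420.4).

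At 36 h Ccnd1 rose by 2.15 (SE 0.45, adjusted p = 0.0201), 2.40 (SE 0.46, adjusted p = 0.0115) and 1.96 (SE 0.33, adjusted p = 0.00577) in the order of the probe sets above, or 3.90-fold to 5.27-fold. At 72 h the changes were 2.02, 2.05 and 1.58 (adjusted p = 0.0367, 0.0360 and 0.0230), and these calls held in 2, 7 and 11 of the 14 fits that left out 1 array. At 48 h only 1417419_at passed (1.89, SE 0.33, adjusted p = 0.00824), and the others stood at 1.65 and 1.79 (adjusted p = 0.0939 and 0.0696). With the replicate number as a block in the limma fit, 1417420_at also passed at 48 h (1.79, SE 0.32, adjusted p = 0.0134). Without normal replicate 2 the 36 h calls of 1417420_at and 1448698_at ended, each with a change of 2.05. Each Ccnd1 call at 48 and 72 h ended too, though the changes of 1417419_at were then larger, at 1.96 and 1.66. Without normal replicate 1 the 72 h calls of 1417419_at (1.51) and 1448698_at (2.12) ended. The 36 h call of 1448698_at ended as well (2.25), and without the 4 arrays of low 5′ to 3′ ratio that of 1417420_at did (2.61). Leaving out either 36 h array also ended the 36 h calls of these 2 probe sets (adjusted p from 0.0599 to 0.141), while 1417419_at passed at 36 h in each of 14 fits that left out 1 array.

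In the first 12 h the Ccnd1 changes were positive on all 3 probe sets, from 1.75-fold to 2.43-fold at 4 h, but only 1417419_at at 8 h passed (1.21, SE 0.33, adjusted p = 0.0366), and without either 8 h array, either normal array or either 4 h array it did not (adjusted p from 0.0568 to 0.202). At 4 h the 3 changes were 1.03, 1.28 and 0.81 (adjusted p = 0.338, 0.212 and 0.283), although both 4 h arrays exceeded both normal arrays on each probe set. Of all probe sets tested, 19.4% had both 4 h arrays above both normal arrays. At 12 h the changes were 0.27, 0.66 and 0.82 (adjusted p = 0.714, 0.351 and 0.119). The 12 h arrays of 1448698_at disagreed: without replicate 2 the 12 h change was 1.26 (SE 0.24, adjusted p = 0.00997), and without replicate 1 it was -0.72 (SE 0.24, adjusted p = 0.0776), the lone array being assumed to vary like the other groups. With either 12 h array left out, the spread was smaller and 1448698_at passed at 4 h (1.03, SE 0.20, adjusted p = 0.0154) and at 8 h (1.07, SE 0.20, adjusted p = 0.00578). Replicate 2 of 12 h is 1 of the 4 arrays with the low 5′ to 3′ ratio. On 1417419_at all 4 of these read below their partners, and on 1448698_at only the 12 h array did. With the low ratio as a block, 1417419_at passed at 8 h (1.53, SE 0.21, adjusted p = 0.00176) and 12 h (1.14, SE 0.21, adjusted p = 0.00763) and 1417420_at at 8 h (1.81, SE 0.44, adjusted p = 0.0293).

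The other D-type cyclins gave no call. Ccnd2, which many cell types use in place of or beside cyclin D1, has 7 probe sets, of which 3 were tested. The brightest, 1416122_at, read 512 and 243 in normal liver and between 376 and 635 on every later array, with group means from 462 at 12 h to 547 at 72 h that overlapped between all neighbours in the order. Its changes ran from 0.33 (SE 0.31) at 12 h to 0.55 (SE 0.31, adjusted p = 0.439) at 72 h. Probe set 1434745_at lay between -0.41 and 0.26, and 1430127_a_at between 0.10 and 0.71 (SE 0.34, adjusted p = 0.374, at 4 h). The 4 that were not tested had means over all arrays of 107, 95.3, 17.6 and 5.8, and were above background on 10, 10, 1 and 0 of 14 arrays. Ccnd3, the third of the family, read 647 and 853 in normal liver, 656 and 583 at 4 h, 512 and 559 at 8 h, 1017 and 728 at 12 h, 762 and 770.4 at 36 h, 949 and 790.2 at 48 h and 832 and 594 at 72 h. The lowest group was 8 h (-0.43, SE 0.25, adjusted p = 0.295) and the one group whose arrays did not overlap those of normal liver. Whether the change of Ccnd1 differed from those of Ccnd2 and Ccnd3 was not tested.

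**Figure D2:**
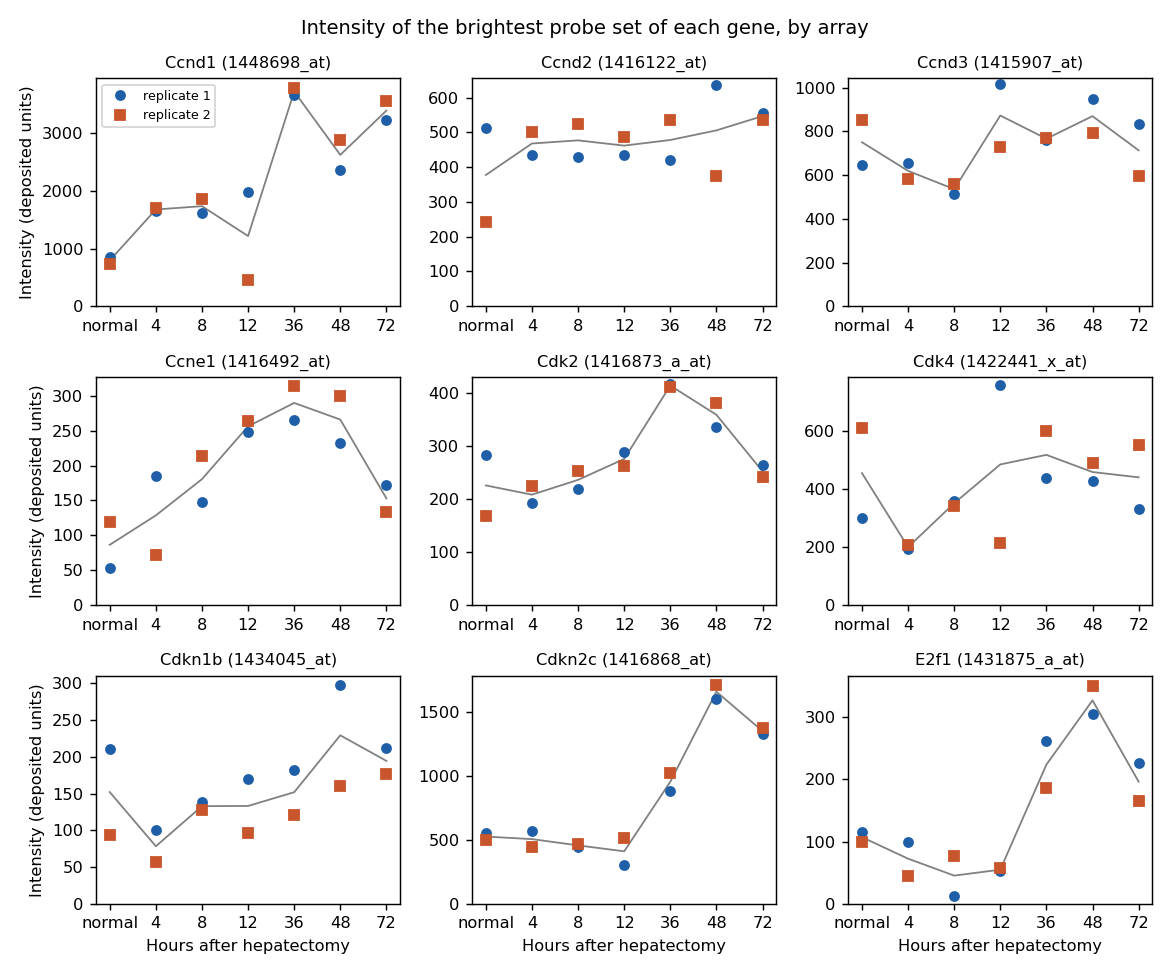
Intensity of the brightest probe set of each of the 9 genes on every array (points, linear axis from 0) in normal liver and at 6 times after hepatectomy; grey lines join group means. Ccnd1, Ccne1, Cdkn2c and E2f1 are higher at 36, 48 and 72 h than in normal liver on both arrays, and Ccne1 and Cdk2 have their highest mean at 36 h. The arrays of Ccnd2, Ccnd3, Cdk4 and Cdkn1b mostly overlap normal liver. The exceptions are Ccnd2 at 72 h, above it, and Ccnd3 at 8 h and Cdk4 at 4 h, below it.

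Cdk4, the catalytic partner of the D-type cyclins, did not pass at any time on any of its 3 probe sets. Its promoter in RefSeq is shown because it holds 4 copies of the E-box CACGTG, the sequence bound by Myc and related factors. The window is chr10:127063285-127063584 on the + strand of GRCm38.p6, from 250 bases before to 50 after the annotated start, with the E-boxes in capitals.
Cdk4: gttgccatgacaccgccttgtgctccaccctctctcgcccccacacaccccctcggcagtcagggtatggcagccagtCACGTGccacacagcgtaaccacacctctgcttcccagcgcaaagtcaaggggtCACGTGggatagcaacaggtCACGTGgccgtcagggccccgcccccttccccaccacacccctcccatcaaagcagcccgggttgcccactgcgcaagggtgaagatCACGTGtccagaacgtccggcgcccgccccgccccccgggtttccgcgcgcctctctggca
Of 32851 such windows from RefSeq, 7.15% hold at least 1 CACGTG, which reads the same on both strands, and 8 hold 4 or more. Probe set 1422439_a_at read 367 and 279.9 in normal liver, 228 and 267 at 4 h, 382 and 513 at 8 h, 467 and 307 at 12 h, 344 and 430.0 at 36 h, 355 and 354 at 48 h and 421 and 538 at 72 h. Its 4 h arrays were the lowest and did not overlap normal liver. The 4 h arrays were also below both normal arrays on 1422440_at, with 197 and 113 at 4 h against 279.4 and 316 in normal liver, and on 1422441_x_at, with 193 and 206 against 299 and 609. The 4 h changes were -0.32 (SE 0.25), -0.77 (SE 0.41) and -0.93 (SE 0.45), with adjusted p = 0.649, 0.442 and 0.388. Among all probe sets 23.8% had both 4 h arrays below both normal arrays. From 8 h on the 3 probe sets lay between -0.26 and 0.50, and on 1422440_at and 1422441_x_at the 12 h arrays were far apart, at 491 and 128 and at 756 and 212, with replicate 2 the lower, as for Ccnd1. The _x suffix marks a probe set that can also bind related sequences.

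Ccne1, the cyclin that pairs with Cdk2 to start S phase, rose at 12 and 36 h. It read 53.7 and 119 in normal liver, 185 and 72.1 at 4 h, 147.4 and 214 at 8 h, 249 and 264 at 12 h, 266 and 314 at 36 h, 233 and 299.5 at 48 h and 173 and 133 at 72 h. The 12, 36 and 48 h arrays were above all arrays of normal liver, 4, 8 and 72 h; both 12 h arrays were below both 36 h arrays, and 48 h overlapped both groups. In addition, 1 normal array and 1 of 4 h were not above background. The change was 1.17 at 12 h (SE 0.32, adjusted p = 0.0344), 1.31 at 36 h (SE 0.32, adjusted p = 0.0411), 1.20 at 48 h (SE 0.32, adjusted p = 0.0847) and 0.58 at 72 h (SE 0.32, adjusted p = 0.419). Both calls are near the threshold: with the low 5′ to 3′ ratio as a block the adjusted p was 0.0631 at 12 h and 0.0746 at 36 h. Without the 4 arrays of low 5′ to 3′ ratio the adjusted p was 0.229 at 12 h and 0.397 at 36 h, with changes of 1.13 and 1.21. The 36 h call ended in 10 of the 14 fits that left out 1 array, among them each fit without a normal or a 36 h array (adjusted p from 0.0595 to 0.275), and the 12 h call ended without normal replicate 1 or either 12 h array (adjusted p = 0.133, 0.0753 and 0.114).

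Cdk2, the kinase of cyclin E and cyclin A, had its highest signal at 36 h without passing. It read 283 and 168 in normal liver, 192 and 223 at 4 h, 218 and 253 at 8 h, 288 and 262 at 12 h, 417 and 409.9 at 36 h, 336 and 381 at 48 h and 263 and 240.4 at 72 h. Both the 36 and the 48 h arrays lay above every other array, and apart from each other. The change at 36 h was 0.77 (SE 0.23, adjusted p = 0.0898); it was 1.06 without normal replicate 1 (adjusted p = 0.0368) and 0.47 without normal replicate 2 (adjusted p = 0.484). Its promoter (chr10:128705002-128705301, - strand, GRCm38.p6) is the one window among those of the members that holds an E2F-type element, in capitals, here as the reverse strand of TTTCCCGC.
Cdk2: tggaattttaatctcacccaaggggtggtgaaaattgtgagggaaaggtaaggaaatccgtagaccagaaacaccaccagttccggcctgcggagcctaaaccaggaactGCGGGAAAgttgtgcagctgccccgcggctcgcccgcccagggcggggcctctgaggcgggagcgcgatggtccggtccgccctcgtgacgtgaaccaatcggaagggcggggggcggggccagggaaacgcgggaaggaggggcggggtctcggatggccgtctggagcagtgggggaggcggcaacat
The elements searched on both strands were TTTGGCGC, TTTCGCGC, TTTCCCGC and TTTGCCGC, and 2.26% of all 32851 windows hold at least 1. A match is a description of the sequence, not of binding. The table has windows for 7 of the 9 members, and Ccnd1 and Ccnd2 have no entry. Other starts of these 7 were not searched.

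Of the inhibitors, Cdkn2c rose late and Cdkn1b gave no call. Cdkn2c, the INK4 protein p18, read 552 and 500.3 in normal liver, 572 and 441 at 4 h, 446 and 469 at 8 h, 304 and 518 at 12 h, 883 and 1027 at 36 h, 1607 and 1713 at 48 h and 1326 and 1379 at 72 h. The arrays of 4 and 12 h overlapped normal liver and both 8 h arrays lay just below it. Above all of these 36, 72 and 48 h followed in that order with no overlap. The change was 0.79 at 36 h (SE 0.25, adjusted p = 0.0987), 1.56 at 48 h (SE 0.25, adjusted p = 0.00444) and 1.27 at 72 h (SE 0.25, adjusted p = 0.0160). The 48 h call held in 13 of 14 fits that left out 1 array and ended without normal replicate 2 (adjusted p = 0.0549). The 72 h call also ended without that array (adjusted p = 0.131), without either 72 h array (0.0930 and 0.141), and without the 4 arrays of low 5′ to 3′ ratio (1.25, adjusted p = 0.202). Fits on only the 4 arrays compared gave adjusted p = 0.0762 at 48 h and 0.0732 at 72 h.

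Cdkn1b, the Cip/Kip protein p27, is known to be controlled largely through its stability. Its tested probe set 1434045_at read 211 and 93.4 in normal liver, 100.1 and 56.4 at 4 h, 138 and 127 at 8 h, 169.6 and 96.5 at 12 h, 182 and 121 at 36 h, 298 and 161 at 48 h and 212 and 177 at 72 h. The order of means ran from 4 h (-0.59, SE 0.34, adjusted p = 0.494) to 48 h (0.47, SE 0.34, adjusted p = 0.557), and the normal arrays spanned most of it. The other probe set, 1419497_at, was above background on 1 of 14 arrays and was not tested.

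E2f1, the transcription factor released when the retinoblastoma protein is phosphorylated, was low through 12 h and high from 36 h. Probe set 1431875_a_at read 115 and 99.1 in normal liver, 99.8 and 45.3 at 4 h, 13.1 and 77.5 at 8 h, 52.9 and 56.8 at 12 h, 262 and 186 at 36 h, 305 and 349.5 at 48 h and 227 and 166 at 72 h. No 8 or 12 h array and 1 of the 4 h arrays was above background, while all arrays of normal liver and of the late times were. The late arrays did not overlap normal liver, and 48 h stood above 36 and 72 h. Against normal liver the changes were 0.76 at 36 h (SE 0.32, adjusted p = 0.219), 1.23 at 48 h (SE 0.32, adjusted p = 0.0741) and 0.62 at 72 h (SE 0.32, adjusted p = 0.387), and none passed. The other probe set, 1417878_at, was not tested; it read 9.5 to 20.7 in normal liver and at 4, 8, 12 and 72 h, and 104 and 40.5 at 36 h and 71.1 and 41.5 at 48 h, with 1 array of 14 above background.

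The windows around the RefSeq starts of Cdkn2c and E2f1 are shown for the same search. These 2 genes had the smallest adjusted p of the members for late against early times. The RefSeq windows used here cover 2 starts for Cdkn2c, chr4:109666707-109667006 and chr4:109665323-109665622, and 1 for E2f1, chr2:154569377-154569676, all on the - strand of GRCm38.p6. None holds 1 of the 4 E2F-type elements, and the second Cdkn2c window holds 1 E-box, in capitals.
Cdkn2c, first start: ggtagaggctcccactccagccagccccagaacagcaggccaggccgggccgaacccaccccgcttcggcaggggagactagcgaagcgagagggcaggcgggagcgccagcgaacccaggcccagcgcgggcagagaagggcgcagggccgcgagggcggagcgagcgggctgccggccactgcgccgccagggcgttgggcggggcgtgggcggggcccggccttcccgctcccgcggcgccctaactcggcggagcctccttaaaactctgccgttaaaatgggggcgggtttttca
Cdkn2c, second start: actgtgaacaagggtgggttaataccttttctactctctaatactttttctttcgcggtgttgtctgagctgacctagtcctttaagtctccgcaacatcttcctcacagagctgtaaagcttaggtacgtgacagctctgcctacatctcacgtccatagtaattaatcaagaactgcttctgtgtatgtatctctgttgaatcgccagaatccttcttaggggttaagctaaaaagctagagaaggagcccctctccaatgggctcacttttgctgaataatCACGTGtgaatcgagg
E2f1: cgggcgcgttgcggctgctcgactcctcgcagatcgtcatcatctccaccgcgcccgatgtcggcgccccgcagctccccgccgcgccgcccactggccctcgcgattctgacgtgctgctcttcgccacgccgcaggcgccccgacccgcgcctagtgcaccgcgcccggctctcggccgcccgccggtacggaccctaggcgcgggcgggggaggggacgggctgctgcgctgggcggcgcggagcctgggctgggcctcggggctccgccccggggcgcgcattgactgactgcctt
No match says only that these letters are not in this window. The search covered only the starts shown, and whether liver uses them was not tested. Whether the E2f1 window holds the main promoter of the gene was not tested either. Other starts of E2f1 were not searched, so the search cannot tell whether its promoter holds an E2F-type element.

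**Figure D3:**
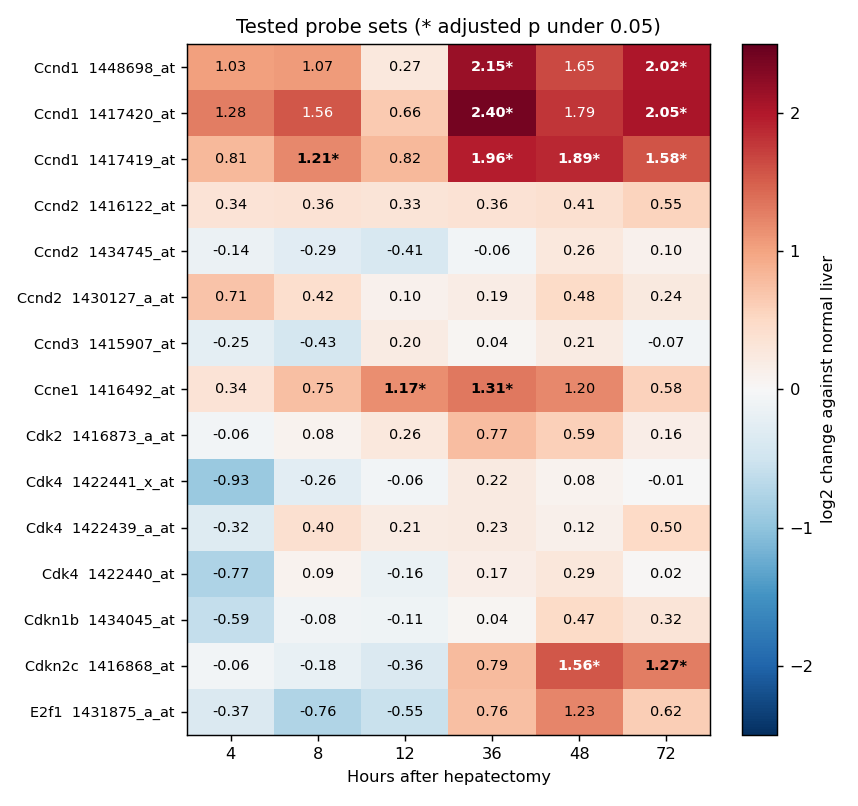
Log2 change of the 15 tested probe sets (rows) against normal liver at each time (columns), as numbers and colour; an asterisk marks an adjusted p under 0.05. The marks lie on Ccnd1, Ccne1 and Cdkn2c, all with a positive change, and none is at 4 h.

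Counted over the 15 tested probe sets, 0 passed at 4 h by limma (3, all of Ccnd1, had an unadjusted p under 0.05, beside 1872 of all tested), 1 each at 8 and 12 h, 4 each at 36 and 72 h, and 2 at 48 h, each of them higher and 0 lower. Of all tested probe sets 1.6% were called higher after 4 h, 4.87% after 8 h, 5.98% after 12 h, 2.28% after 36 h, 1.64% after 48 h, and 1.62% after 72 h, and 4.72% and 6.22% were called lower after 8 and 12 h. In either direction 329, 566, 315 and 338 of the 13576 were called at 4, 36, 48 and 72 h. The members' share called higher was 6.67% at 8 and 12 h, near that of all probe sets, and 13.3% at 48 h. It was 26.7% at 36 and 72 h, where 3 of the 4 are probe sets of the 1 gene Ccnd1. The median change of the 15 was -0.06 at 4 h, 0.36 at 36 h and 0.50 at 72 h, against 0, 0.07 and 0.11 over all probe sets. Both arrays lay above both normal arrays for 4, 6 and 3 of 15 at 4, 8 and 12 h, where 19.4%, 29.5% and 29.4% of all probe sets did, and for 7, 9 and 9 at 36, 48 and 72 h, where 26.7%, 22.9% and 27.1% did. Both lay below for 3, 3 and 2 at 4, 8 and 12 h, beside 23.8%, 25.6% and 22.9% of all, and for 0 at 36, 48 and 72 h, beside 20.2%, 16.3% and 17.5%. All 6 comparisons share the 2 normal arrays. By the moderated F test over the 6 times 5 of 15 passed, for Ccnd1 (adjusted p from 0.0106 to 0.0284), Cdkn2c (0.000816) and E2f1 (0.00584), against 13.1% of all probe sets; Ccne1 (0.0685) and Cdk2 (0.127) did not.

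A comparison of the late times (36, 48 and 72 h, 6 arrays) with the early times (4, 8 and 12 h, 6 arrays) does not use normal liver. E2f1 rose by 1.43 (SE 0.18, adjusted p = 0.000246), Cdkn2c by 1.41 (SE 0.14, adjusted p = 3.80e-05) and Ccnd1 by 1.15, 0.91 and 0.87 on its 3 probe sets (adjusted p = 0.0104, 0.0345 and 0.00840). These 5 of 15 stand beside 9.92% of all probe sets called higher; 0 of 15 were called lower, beside 5.96%. The calls of E2f1, Cdkn2c and 2 of the Ccnd1 probe sets held in all 14 fits that left out 1 array, and that of 1417420_at in 6; without the 4 arrays of low 5′ to 3′ ratio it stood at 0.70 (adjusted p = 0.278). Cdk2 (0.41, SE 0.13, adjusted p = 0.0564), Cdkn1b (0.54, SE 0.20, adjusted p = 0.0867), Ccne1 (0.28, SE 0.18, adjusted p = 0.365) and Ccnd3 (0.22, SE 0.14, adjusted p = 0.358) did not pass, and Ccnd2 lay between -0.11 and 0.38. For E2f1 5 of the 6 early arrays were not above background, so the size of its difference is set in part by the pseudocount: it was 0.73 with 228 added and 1.96 with 14.25 added, and passed with both. E2f1 also reached the filter of 128.8, with a mean of 146.7, only through its late arrays. Its means were 107 in normal liver and 45.3 to 72.55 at the early times. Its place among the 5 of 15 is thus not independent of the filter. The call held in all 11 other settings run for it, no filter among them.

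From 12 to 36 h 3 of 15 probe sets rose, beside 3.09% of all. Cdkn2c rose by 1.15 (SE 0.25, adjusted p = 0.0218) and Ccnd1 1448698_at by 1.88 (SE 0.45, adjusted p = 0.0355). E2f1 was at least 1.85-fold higher (adjusted p = 0.0358), from means of 54.9 ± 2.76 (SD, n = 2) at 12 h, under background, to 224 ± 53.5 (SD, n = 2) at 36 h. Ccne1 stood at 0.14 (SE 0.32) over the same step. The change of Ccnd1 1448698_at was 0.89 without replicate 2 of 12 h (SE 0.24, adjusted p = 0.0779) and 2.87 without replicate 1 (SE 0.24, adjusted p = 0.000290). With the low 5′ to 3′ ratio as a block all 3 Ccnd1 probe sets passed (adjusted p = 0.0312, 0.0361 and 0.00923), and without the 4 arrays 1448698_at stood at 0.87 (adjusted p = 0.422). Without these 4 arrays Cdkn2c stood at 1.38 (adjusted p = 0.187) and E2f1 did not pass (adjusted p = 0.191), and their calls held in 11 and 8 of the 14 fits that left out 1 array, ending without either 36 h array (adjusted p from 0.0885 to 0.235). The E2f1 call also ended without either 12 h array. It ended with the pseudocount at 14.25 (adjusted p = 0.0763), no filter (0.0623), an intensity trend (0.0575), array weights (0.106) and only the arrays compared (0.137). In all it held in 5 of 11 alternatives other than leaving out 1 array. Replicate 2 of 36 h, the one with the high pancreatic signal, read 3783 for Ccnd1, 1027 for Cdkn2c and 186 for E2f1, against 3659, 883 and 262 on its partner.

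**Figure D4:**
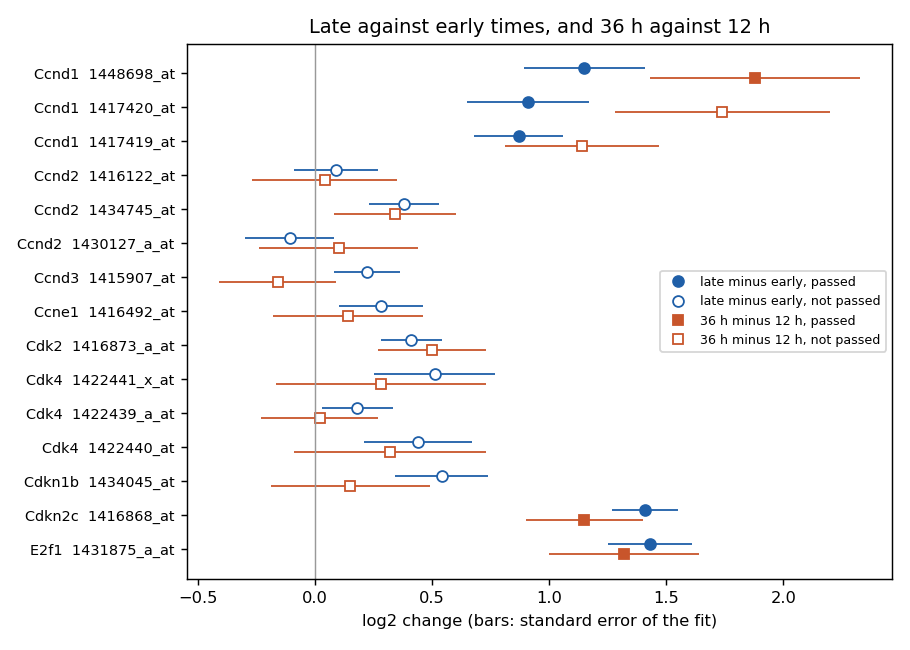
Log2 change, with the standard error of the fit as bars, of the 15 tested probe sets for late against early times (circles) and for 36 h against 12 h (squares); filled symbols passed. Filled symbols lie on Ccnd1, Cdkn2c and E2f1, from 0.87 to 1.88.

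Other genes of the pathway were taken from lists of known members. Of the retinoblastoma and E2F family 8 of 13 written were tested: 1 fell at 8 h and at 12 h (4.72% and 6.22% of all probe sets did), 1 rose at 48 h (1.64% of all), and 3 rose from early to late times (9.92% of all). Rbl2, the pocket protein p130 of resting cells, fell by 1.02 at 8 h (SE 0.21, adjusted p = 0.00997) and fell by 0.83 at 12 h (SE 0.21, adjusted p = 0.0225). Rbl1, the pocket protein p107 of cycling cells and itself an E2F target, rose by 1.16 at 48 h (SE 0.21, adjusted p = 0.0106). Tfdp1, the dimer partner of E2F1, rose by 0.81 (SE 0.18, adjusted p = 0.00870) and E2f6, an E2F repressor, by 0.78 (SE 0.19, adjusted p = 0.0154) from early to late times. The list's median in that comparison was 0.52, against 0.02 over all probe sets.

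Of 5 other inhibitors only Cdkn1a and Cdkn2d were bright enough to be tested, and they moved in opposite directions from early to late times. Cdkn1a, the Cip/Kip protein p21, rose against normal liver at each time but 48 h (1.41, SE 0.37, adjusted p = 0.0847). From early to late times it fell by 1.28 (SE 0.22, adjusted p = 0.00176), from group means of 2304 to 3606 at 4 to 12 h to 752 to 1465 at 36 to 72 h, against 248 in normal liver; its 12 h arrays were far apart, at 1859 and 5352. Cdkn2d, the INK4 protein p19, rose by 1.01 (SE 0.16, adjusted p = 0.00124), with a mean of 478 ± 30.0 (SD, n = 2) at 48 h against 166 in normal liver. Among 6 tested of the other G1 cyclins, kinases and phosphatases, Cdc25a, the phosphatase that activates Cdk2, rose at 12 h (1.63, SE 0.40, adjusted p = 0.0210), and Cdk7, of the CDK-activating kinase, at 8 h (1.31, SE 0.34, adjusted p = 0.0325). The normal arrays of Cdc25a read 152 and 17.8, the second under background, so the size of its rise is uncertain. Wee1, the kinase that restrains Cdk1, rose at 12, 36, 48 and 72 h, by 2.45 at 72 h (SE 0.32, adjusted p = 0.00139). Of 6 tested genes of p27 and cyclin E turnover 1, Cks1b, the cofactor that lets SCF-Skp2 bind p27, rose at each time from 8 h on, by 1.51 at 8 h (SE 0.26, adjusted p = 0.00390) and 2.07 at 48 h (SE 0.26, adjusted p = 0.000789). Skp2 did not pass. Beside these lists, 1.6% of all probe sets rose at 4 h, 4.87% at 8 h and 5.98% at 12 h. At 36, 48 and 72 h 2.28%, 1.64% and 1.62% rose, and from early to late times 9.92% rose and 5.96% fell.

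Known E2F targets of S phase were mostly higher than in normal liver at the late times, where E2f1 itself did not pass against normal liver. A link between E2f1 and these genes was not tested. Of 21 genes listed 20 are on the array, and 15 passed the filter on the mean over all arrays. Late signals raise that mean. Cdk1, with group means of 26.6 to 97.45 in normal liver and through 12 h, reached it through means of 839 to 2581 later. The filter thus favours genes that are high late, and the counts describe only genes that passed it. Of 15 tested, 0 passed at 4 h (limma), 1 rose and 2 fell at 8 h, 1 rose and 1 fell at 12 h, and 12 rose at 36 h, 13 did so at 48 h and 9 at 72 h. Of all probe sets 4.87% rose and 4.72% fell at 8 h, and 5.98% rose and 6.22% fell at 12 h. At 36, 48 and 72 h 2.28%, 1.64% and 1.62% of all rose. Their median change was 1.64 at 36 h and 1.89 at 48 h, against 0.07 and 0.12 over all probe sets. Mcm6, a subunit of the replicative helicase, went from 43.4 ± 24.2 (SD, n = 2) at 12 h, under background, to 1382 ± 12.6 (SD, n = 2) at 36 h, at least 11.6-fold higher (adjusted p = 0.000554). Ung, which removes uracil from DNA, rose early, by 1.47 at 8 h (SE 0.23, adjusted p = 0.00239), and Tk1, thymidine kinase, fell by 1.82 at 12 h (SE 0.33, adjusted p = 0.00473).

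**Figure D5:**
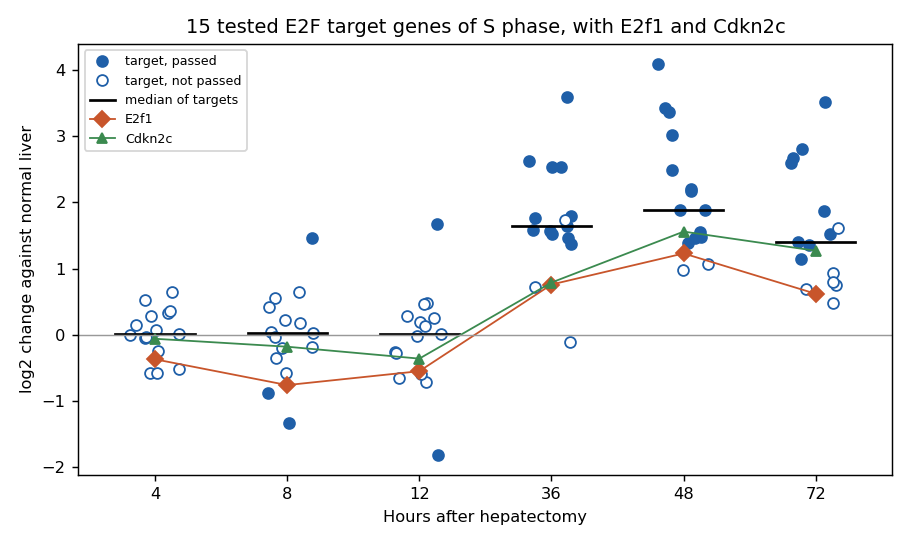
Log2 change against normal liver of the 15 tested E2F target genes (circles, filled where the adjusted p was under 0.05; horizontal spread within a time is for display) with their median (bar), and of E2f1 and Cdkn2c (lines). The median is near 0 through 12 h, 1.64 at 36 h and 1.89 at 48 h, and both lines have their highest point at 48 h.

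The genes whose means over the 7 groups were most like those of a member were listed for the 3 genes that passed the F test, from 1184 other genes that also passed it. Closest to Cdkn2c were Cdk1, the mitotic kinase, Smc2, a condensin subunit, and Mad2l1, a spindle checkpoint protein, each with a Pearson correlation of 0.99. Closest to E2f1 were Nup133, a nuclear pore protein (0.984), Mcm7, a helicase subunit (0.978), and Spc25, a kinetochore protein (0.977). Closest to Ccnd1 were Cd9, a membrane tetraspanin (0.936), Gstm2, a glutathione transferase (0.924), and Nqo1, a quinone reductase (0.915). The correlations are over 7 points that share arrays and scaling, and are descriptions.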

How the data were processed

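The deposited table gives intensities on a linear scale, 1 per probe set and array; no source used here names the software behind them. The authors chose genes that differed 2-fold with GeneSpring 7.2, per the labels' design text. Without the lowest and highest 2% of values the mean of each array was 500.2 to 500.3, so the deposited scaling was kept. After 64 controls were left out, log2(intensity + 57), with 57 the 25th percentile, was fitted in limma 3.58.1 (R 4.3.3) with 7 groups, variances moderated over genes (5.08 prior and 7 residual degrees of freedom) and no covariate. Testing was limited to probe sets whose mean reached 128.8, the 40th percentile. Benjamini-Hochberg adjustment was made separately for each contrast. Gene names came from the array's annotation: 20380 of 22626 probe sets have 1 symbol, 691 several and 1555 none. A group with no array above background gives a bound, its background standing in for its signal.

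All members were named, with up to 4 passing genes per list and contrast and the 3 genes most like each member in the F test, each by its brightest probe set. The members, lists and alternatives were chosen with earlier results of these data known. The fit was tested on simulated data. Deviations of same-numbered arrays correlated at up to 0.527, between normal liver and 48 h. They correlated above 0.1 in 9 of 21 pairs of groups, so the numbers were not taken to pair the samples over all groups. Among 8, 12, 36 and 72 h, where replicate 2 has the low 5′ to 3′ ratio, all 6 pairs did (0.144 to 0.307), and this ratio was fitted as a block of its own.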

Additional observations from a re-analysis of the deposited data

Results flagged for a closer look

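The changes against normal liver differed between times for 3 members, by the test of that difference in limma. From early (4, 8 and 12 h) to late times (36, 48 and 72 h) the difference was 1.43 for E2f1, 1.41 for Cdkn2c, and 1.15, 0.91 and 0.87 for the Ccnd1 probe sets 1448698_at, 1417420_at and 1417419_at. From 12 to 36 h it was 1.88 for Ccnd1 1448698_at, 1.15 for Cdkn2c and 1.32 for E2f1. The E2f1 call of this step held in 5 of 11 alternatives other than leaving out 1 array. For E2f1 5 of the 6 early arrays, both 12 h arrays among them, were not above background, so neither of its differences is a measured fold, and the early to late one was 0.73 with a pseudocount of 228 and 1.96 with one of 14.25. E2f1 also reached the filter on low signals only through its late arrays. The 12 to 36 h difference of Ccnd1 1448698_at was 0.89 without replicate 2 of 12 h (adjusted p = 0.0779) and 2.87 without replicate 1 (adjusted p = 0.000290); with the low 5′ to 3′ ratio as a block all 3 Ccnd1 probe sets passed (adjusted p = 0.0312, 0.0361 and 0.00923).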

How the results depend on the processing

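The counts are of member probe sets that passed, of 15 tested, or of 21 with no filter and 10 with the filter at the 60th percentile, where Ccne1 was not tested. At 8 h the count of 1 was 0 with quantile normalization and with no filter, and 2 with an intensity trend, the filter set at the 60th percentile, the replicate number as a block, the low 5′ to 3′ ratio as a block, and only the arrays compared. At 12 h the count of 1 was 0 with quantile normalization, no filter, the filter at the 60th percentile, array weights, without the 4 arrays of low ratio and with only the arrays compared. At 36 h the count of 4 was 2 without those 4 arrays. It was 3 with quantile normalization, the pseudocount at 14.25, no filter and the filter at the 60th percentile. Array weights, the low ratio as a block and only the arrays compared also gave 3. At 48 h the count of 2 was 5 with the pseudocount at 228, and 1 with array weights and with only the arrays compared. It was 3 with an intensity trend and without the 4 arrays of low ratio. At 72 h the count of 4 was 2 with quantile normalization, the pseudocount at 14.25, no filter, without the 4 arrays and with only the arrays compared. With array weights it was 3. From early to late times the count of 5 was 6 with quantile normalization, array weights and only the arrays compared. It was 4 with the pseudocount at 14.25 and without the 4 arrays. From 12 to 36 h the count of 3 was 1 with the pseudocount at 14.25 and with no filter, and 5 with the low ratio as a block. It was 0 without the 4 arrays and with only the arrays compared. It was 4 with the pseudocount at 228 and with the filter at the 60th percentile, and 2 with array weights. By the F test the count of 5 was 3 with no filter, 4 with the filter at the 60th percentile and without the 4 arrays, and 6 with array weights. Fewer arrays, or more probe sets tested, are part of some of these settings; otherwise the cause was not tested. Leaving out 1 array gave 0 to 1 at 4 h, 0 to 3 at 8 h, 0 to 1 at 12 h, 1 to 5 at 36 h, 0 to 4 at both 48 and 72 h, 4 to 7 from early to late times, 0 to 4 from 12 to 36 h and 3 to 6 by the F test.

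With the replicate number as a block, the counts were 2 at 8 h, 4 at both 36 and 72 h, 3 at 48 h, 6 from early to late times and 4 from 12 to 36 h; same-numbered samples are not stated to share more than the number. With the low ratio as a block the count at 12 h stayed at 1, but Ccne1 was lost (adjusted p = 0.0631) and Ccnd1 1417419_at gained (adjusted p = 0.00763). Of 20 single results that passed, none changed direction under any alternative run; over all 120, 127 alternatives ended a call, 58 made one and 0 reversed one. The 2 arrays per group, and background near the signals of E2f1, Ccne1 and Cdkn1b, limit the precision.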
